A study of Mus musculus with 9 samples.

Results

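The genes described here build and fill the lysosome: 16 encode subunits or accessory proteins of the vacuolar proton pump (V-ATPase), 9 encode cathepsins, 9 encode other acid hydrolases, 2 encode the hydrolase activators prosaposin and progranulin, 3 encode lysosomal membrane proteins, and 1 encodes the transcription factor Tfeb. They were picked by gene symbol from the 54281 genes of the deposited table. All 40 were found there, and all 40 had enough counts to be among the 15713 genes tested. RNA was sequenced from the macrophages of 9 mice, all female, wild type and 12 weeks old, whose lungs were lavaged with gentle massage. One group had breathed air (n = 3 mice), and the other groups had breathed ozone, an oxidant pollutant, at 0.8 ppm for 3 h and were killed 24 h (n = 3) or 72 h (n = 3) later. The labels give no strain, no sorting step and no time of killing for the air mice, and each library came from a separate mouse.

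Lysosomes are acidic compartments in which macrophages digest what they have engulfed. The V-ATPase acidifies them: its peripheral V1 sector hydrolyses ATP and drives protons through the membrane-embedded V0 sector. Cathepsins and other hydrolases work at that acid pH, and Tfeb is a transcription factor that can raise many lysosomal genes together. Alveolar macrophages use this system to clear inhaled particles and to break down surfactant.

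Totals ranged from 47095448 to 60248252 counts per library, and levels are given as CPM, counts scaled to the size of the library. Alveolar macrophage markers were present in all 9 libraries, with a summed level of 31749 to 34452 CPM in air. Replicate 2 at 24 h and replicate 1 at 72 h stood apart. In these 2, B cell markers summed to 1379 and 768.0 CPM, while the other 7 held 1.79 to 9.65 CPM, and markers of serous cavity macrophages to 661 and 871 CPM, while the other 7 held 2.30 to 4.49 CPM. Alveolar macrophage markers summed to 21411 and 25024 CPM there and to 27308 to 34452 CPM in the other 7. Erythroid markers summed to 2909 and 2509 CPM in these 2, to 855 CPM in replicate 1 at 24 h and to 12.2 to 143 CPM in the other 6. Other markers moved with time: those of dendritic cells summed to 99.9, 115 and 113 CPM in the 3 libraries at 72 h and to 43.8 to 54.6 CPM in air, and those of epithelium to 63.0, 75.1 and 81.2 CPM at 72 h and 37.7 to 43.8 CPM in air. Their part in the results was not tested. Xist, which is transcribed from the inactive X chromosome of females, was at 2.42 CPM in air replicate 2 and at 887 to 1482 CPM in the other 8, while Y-linked genes summed to at most 0.239 CPM in every library. In such bulk RNA, fewer cells of a type and less RNA per cell cannot be told apart.

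Most lysosomal genes differed little from air after ozone. At 24 h, 0 of the 40 genes changed (edgeR quasi-likelihood test, Benjamini-Hochberg adjusted p under 0.05 over all genes tested), against 0.00636% of all genes tested. At 72 h against air, 2 genes fell and 0 rose, against 5.47% of all genes tested. Both encode small V1 subunits, Atp6v1f and Atp6v1g1. From 24 h to 72 h, 4 genes changed, against 18.2% of all genes: Atp6v1f and Atp6v1g1 fell, and Ctsk, which encodes the collagen-degrading cathepsin K, and Mcoln1, which encodes the lysosomal calcium channel TRPML1, rose. A joint test of any difference among the 3 groups called 2 of the 40, Atp6v1f and Atp6v1g1, against 13.2% of all genes. The shares of lysosomal genes called at 72 h (2 of 40, and 4 of 40) were thus near or below those of all genes.

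The changes that did not pass the test were small, and most were bounded by the data. Median log2 fold changes over the 40 genes were -0.05 at 24 h, -0.05 at 72 h and 0.00 from 24 h to 72 h, beside 0.01, -0.01 and -0.03 over all genes tested. The log2 fold changes ran from -0.26 to 0.28 at 24 h and from -0.35 to 0.44 at 72 h. The 95% interval of the fold change lay within 1.5-fold in either direction for 40 of 40 genes at 24 h and for 39 of 40 in both other comparisons, the exception in both being Ctsk. Among the 4430 genes expressed at or above the lowest of the 40, 92.5% lay within 0.3 of 0 on the log2 scale at 24 h and 89.1% at 72 h, beside 100% and 92.5% of the lysosomal genes. At an unadjusted p under 0.05, 3 of the 40 passed at 24 h, 12 at 72 h and 7 from 24 h to 72 h, against 14.7%, 25.3% and 33.3% of all genes. DESeq2 called 0, 7 and 5 of the 40 in the 3 comparisons, against 5.03%, 12.6% and 25.8% of the genes it tested, and limma voom also called 0 at 24 h, against 0.00636%.

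**Figure D1:**
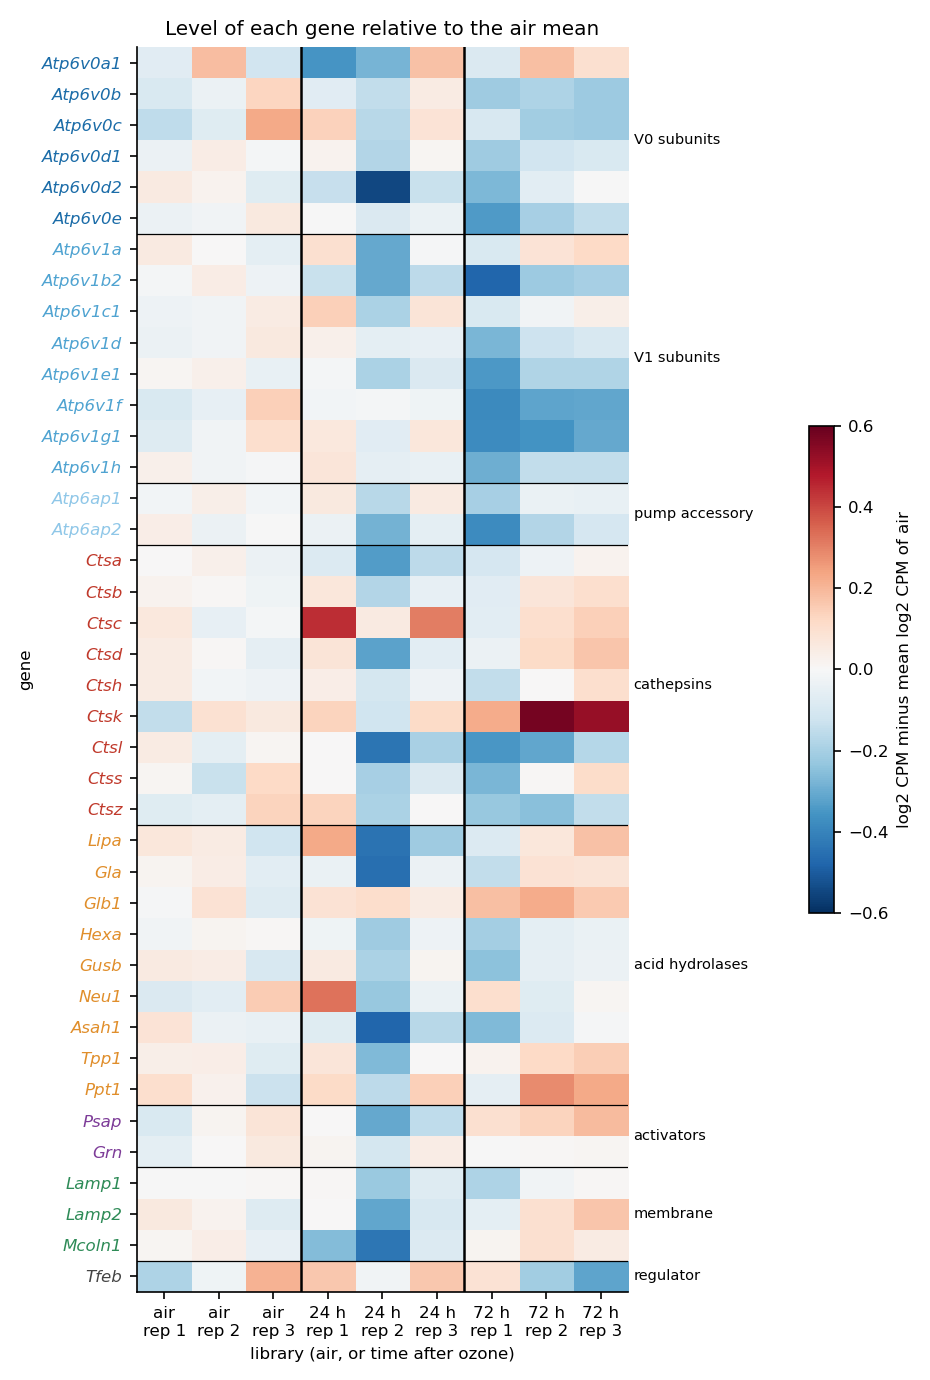
Each row is a gene and each column a library; colour gives log2 CPM minus the mean log2 CPM of the 3 air libraries, and lines separate the groups and the roles. Most cells are pale; replicate 2 at 24 h is the lowest of its group in 37 of the 40 genes, and replicate 1 at 72 h in 34.

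Lysosomal genes were abundant in these macrophages. Together they took 2.77% to 3.49% of the counts of a library, lowest in replicate 2 at 24 h. Different genes were compared per kilobase of exon, where the length counts all annotated exons of a gene together. That length can exceed the length of the transcript expressed, so ranks on this scale depend on the annotation. On it the aspartic protease Ctsd was highest at 2941 ± 275 CPM per kb (SD over all 9 libraries). The cysteine protease Ctss followed at 2387 ± 219 CPM per kb and the saposin precursor Psap at 1977 ± 206 CPM per kb. Over the 9 libraries the ranges of Ctsd and Ctss overlapped, as did those of Ctss and Psap, whereas the fourth gene, Atp6v0d2 at 487 ± 57.5 CPM per kb, lay below all of them in every library. At the low end were Mcoln1 at 12.6 ± 1.40, Atp6v1h at 9.60 ± 0.720 and Tfeb at 8.15 ± 1.03 CPM per kb. The ranges of neighbours in this order overlapped. Without division by length, Atp6v1h (9746 bases) was at 93.6 CPM on average, beside 94.6 CPM for Atp6v1f (1063 bases).

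**Figure D2:**
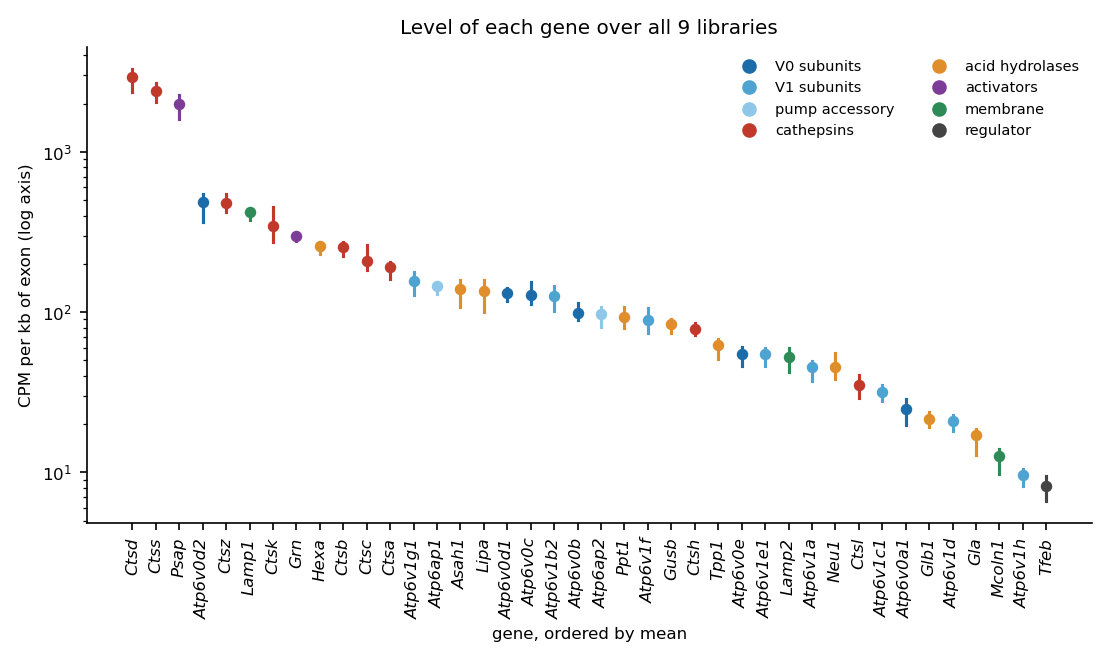
Points are means over all 9 libraries in CPM per kilobase of exon on a log axis, and bars run from the lowest to the highest library; colours mark the roles. Ctsd, Ctss and Psap stand apart at the top, at 1977 to 2941 CPM per kb, and Tfeb is lowest at 8.15 CPM per kb.

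Several pump subunits exist as alternative genes, and the macrophages used a limited set. The V0 d subunit is encoded by Atp6v0d1, which is broadly expressed, and Atp6v0d2, known from osteoclasts and macrophages. Atp6v0d2 reached 487 CPM per kb against 131 ± 8.15 CPM per kb for Atp6v0d1. Among genes for the V0 a subunit, Tcirg1 (a3) was highest at 56.7 CPM per kb, followed by Atp6v0a1 at 24.8 and Atp6v0a2 at 10.9 CPM per kb. Atp6v0a4, Atp6v1b1, Atp6v1c2, Atp6v1e2 and Atp6v1g3, known mostly from kidney and testis, had no more than 8 counts per library and were not tested.

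At 72 h the pump genes lay mostly below air, and 2 of the 16 passed the test. The median log2 fold change of the 16 was -0.19 at 72 h, with 14 of 16 negative, beside -0.04 at 24 h. Among the 4430 genes at or above the lowest level of the 40, 2863 were negative at 72 h, with a median of -0.07. The 5 other pump genes tested, outside the 40, had a median of 0.06 at 72 h, with 4 positive and 1 negative, and Tcirg1 among them was at 0.22 (edgeR adjusted p = 0.459). All 3 libraries at 72 h lay below all 3 in air for 11 of the 16, whereas 22.1% of all genes did so, and 34.8% of genes at the members' levels. Of the 16, 9 had an unadjusted p under 0.05 at 72 h, against 25.3% of all genes and 1399 of the 4430 at the members' levels. The 2 that passed compare with 3.77% of all genes lower by the test, and with 300 of those 4430. The 24 other lysosomal genes included 3 that lay lower in this way and 3 that lay higher, against 17.5% of all genes higher. With DESeq2, 5 of the 16 were called lower at 72 h: Atp6v0e, Atp6v1b2, Atp6v1e1, Atp6v1f and Atp6v1g1. DESeq2 called 12.6% of the genes it tested there, in either direction. Values at 72 h also moved with exon length, which is taken up after the single genes.

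In the V0 sector no gene passed the edgeR test, though DESeq2 called Atp6v0e lower at 72 h against air (adjusted p = 0.0287). Atp6v0e, which encodes a small membrane subunit, was at 210.4, 212 and 224 CPM in air, then 215, 203 and 209.6 CPM at 24 h and 169.8, 188 and 194 CPM at 72 h. The 72 h libraries lay below the other 6, and the log2 fold change against air was -0.23 ± 0.07 (SE; edgeR adjusted p = 0.0775). Atp6v0d1 was at 239, 252 and 243 CPM in air, then 248, 216 and 247 CPM at 24 h and 211, 226 and 229.8 CPM at 72 h, with the 72 h libraries below air (-0.14 ± 0.07, adjusted p = 0.26). Its alternative, Atp6v0d2, was at 1489, 1458 and 1365 CPM in air, then 1307, 984 and 1309.5 CPM at 24 h and 1191, 1374 and 1432.5 CPM at 72 h. There it was the 24 h libraries that lay below air, with replicate 2 far below the others (-0.26 ± 0.13, adjusted p = 0.359). Of the other V0 genes, Atp6v0b, Atp6v0c and Atp6v0a1 differed from air by -0.21, -0.18 and 0.06 on the log2 scale at 72 h. For Atp6v0b the 72 h libraries lay below those of air, and for the other two the groups overlapped.

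In the V1 sector, Atp6v1f and Atp6v1g1 fell between 24 h and 72 h. Atp6v1f (chromosome 6, 29467718 to 29470512, plus strand, GRCm38) encodes the F subunit of the rotating shaft. It was at 95.7, 98.5 and 112 CPM in air, then 100.9, 101 and 100.3 CPM at 24 h and 78.3, 81.8 and 82.0 CPM at 72 h. All 3 libraries at 72 h were below the other 6, and air and 24 h overlapped. The mean was 102 ± 8.99 CPM in air (SD, n = 3), 100.8 ± 0.445 CPM at 24 h and 80.7 ± 2.07 CPM at 72 h. At 72 h it fell to 0.79 of air (log2 fold change -0.34 ± 0.07, edgeR adjusted p = 0.0315) and to 0.80 of 24 h (-0.32 ± 0.07, adjusted p = 0.0148).

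Atp6v1g1 (chromosome 4, 63544772 to 63550750, plus strand, GRCm38) encodes the G subunit of the stalk that holds the pump still. It was at 179, 186 and 202 CPM in air, then 197, 179.8 and 198 CPM at 24 h and 145, 147 and 153 CPM at 72 h. Here too the 72 h libraries were below the other 6. It fell to 0.78 of air (-0.35 ± 0.07, edgeR adjusted p = 0.0315) and to 0.77 of 24 h (-0.37 ± 0.07, adjusted p = 0.0101). With 3 mice a group, both calls against air were close to the threshold. The call for Atp6v1f against air was made in 2 of 9 fits that each left out 1 library, without air replicate 1 or without replicate 2 at 24 h, and that for Atp6v1g1 in 1 of 9, without replicate 2 at 24 h. In the other fits the adjusted p was 0.0668 to 0.129 for Atp6v1f and 0.0559 to 0.145 for Atp6v1g1. The log2 fold change stayed between -0.40 and -0.26 for Atp6v1f and between -0.40 and -0.29 for Atp6v1g1 over these fits. Without air replicate 2, the library low in Xist, they were -0.38 (adjusted p = 0.0959) and -0.37 (adjusted p = 0.106). Upper quartile scaling and no filter on low counts also ended both calls, with adjusted p of 0.0502 to 0.0588. From 24 h to 72 h, the call for Atp6v1f was lost without replicate 1 or 3 at 24 h or replicate 2 at 72 h (adjusted p = 0.0607, 0.0517 and 0.0668), and that for Atp6v1g1 without replicate 1 at 24 h or replicate 2 at 72 h (0.0534 and 0.0613).

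The remaining V1 genes and the accessory genes did not pass the edgeR test. DESeq2 called Atp6v1b2 and Atp6v1e1 lower at 72 h against air (adjusted p = 0.0347 and 0.0435). Atp6v1b2, which encodes the B subunit of the catalytic head, was at 739, 768 and 729 CPM in air, then 679.9, 603 and 668 CPM at 24 h and 536, 641 and 649 CPM at 72 h. Both ozone groups lay below air (-0.20 ± 0.09 at 24 h, -0.29 ± 0.09 at 72 h; edgeR adjusted p = 0.348 and 0.0915), and replicate 1 was lowest at 72 h. Atp6v1h, the regulatory H subunit, was at 99.8, 96.4 and 97.4 CPM in air, then 102.9, 94.4 and 94.9 CPM at 24 h and 79.9, 88.2 and 88.4 CPM at 72 h (-0.19 ± 0.06 against air, adjusted p = 0.088). Atp6v1e1 and Atp6v1d also had all 72 h libraries below air, with log2 fold changes of -0.23 and -0.16, whereas Atp6v1a and Atp6v1c1 overlapped with air at 0.04 and -0.02. Of the accessory genes, Atp6ap2, which encodes the (pro)renin receptor, was at 281, 267 and 273 CPM in air, then 267, 225 and 262 CPM at 24 h and 211, 242 and 255 CPM at 72 h (-0.21 ± 0.09, adjusted p = 0.19). Atp6ap1, an assembly factor of the pump, was at 443, 459 and 443 CPM in air, then 467, 399.7 and 464 CPM at 24 h and 390.3, 436 and 434 CPM at 72 h (-0.09 ± 0.08, adjusted p = 0.489). For both, the 72 h libraries lay below air, with replicate 1 the lowest.

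**Figure D3:**
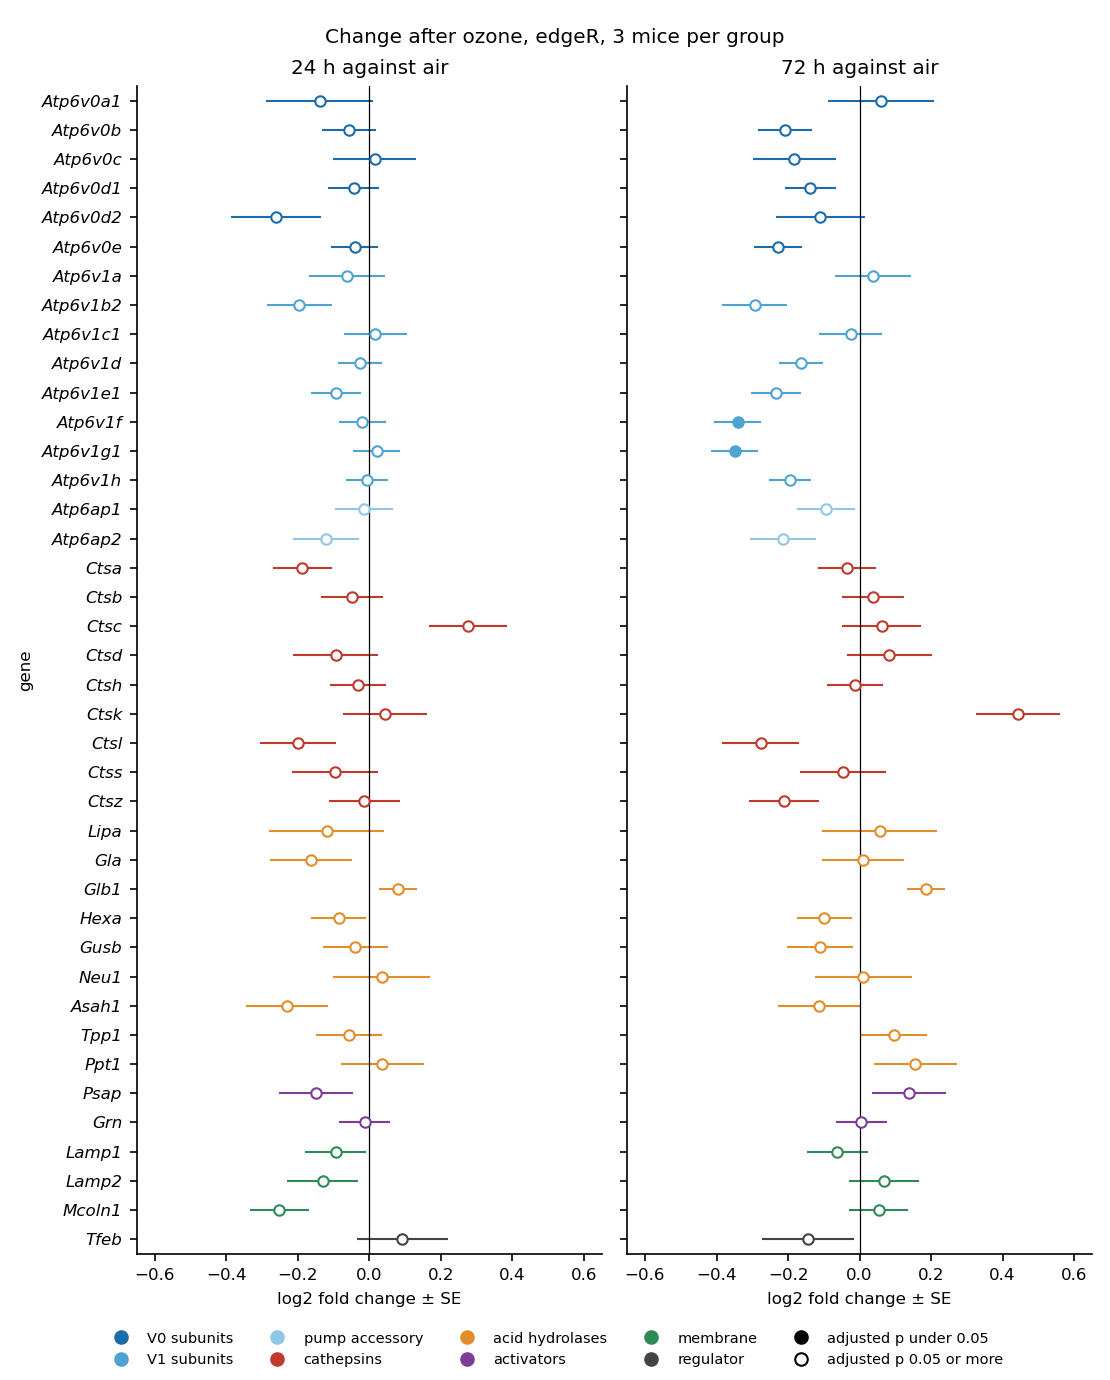
Points are log2 fold changes against air and bars are ± SE from edgeR, at 24 h (left) and 72 h (right), coloured by role; filled points passed the test. At 72 h, 14 of the 16 pump genes lie left of 0, the filled points are Atp6v1f and Atp6v1g1, and Ctsk lies farthest to the right at 0.44.

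Among the 9 cathepsins, Ctsk rose from 24 h to 72 h and the other 8 did not pass the test in any comparison. Ctsk (chromosome 3, 95499256 to 95509362, plus strand) was at 415, 491 and 478 CPM in air, then 505, 424 and 498 CPM at 24 h and 538, 684 and 661 CPM at 72 h. All 3 libraries at 72 h lay above the other 6, the lowest of them being replicate 1. Means were 461 ± 40.8 CPM (air), 476 ± 44.9 CPM (24 h) and 628 ± 78.9 CPM (72 h; SD, n = 3). It rose 1.32-fold from 24 h to 72 h (0.40 ± 0.12, edgeR adjusted p = 0.0475), and against air the 1.36-fold difference missed the threshold (0.44 ± 0.12, adjusted p = 0.0628). Without the 2 libraries that carried B cell and serous cavity markers, a fit chosen after the data were seen, both passed: 0.57 ± 0.08 against air (adjusted p = 0.00686) and 0.45 ± 0.09 against 24 h (adjusted p = 0.0192). When 1 library at a time was left out, the call from 24 h to 72 h held in 1 of 9 fits, without replicate 1 at 72 h. In the 8 others its adjusted p was 0.0735 to 0.207 and its log2 fold change 0.33 to 0.46. That call was also lost with no filter on low counts, with voom and in a fit of only the 6 libraries compared (adjusted p = 0.103, 0.0503 and 0.0855). With replicate number as a block in edgeR it was lost too (adjusted p = 0.0911). The difference against air passed with DESeq2, in a fit of only the 6 libraries compared and without replicate 2 at 24 h (adjusted p = 0.00395, 0.0477 and 0.0318).

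The most abundant cathepsins overlapped between the groups. Ctsd was at 7158, 6948 and 6659 CPM in air, then 7292, 5537 and 6624 CPM at 24 h and 6742, 7502 and 7759 CPM at 72 h, and all 3 groups overlapped (0.08 ± 0.12 at 72 h, adjusted p = 0.684). Ctss, which trims the invariant chain in antigen presentation, was at 3372, 3049 and 3623 CPM in air, then 3347, 2909 and 3142.5 CPM at 24 h and 2764, 3358 and 3607 CPM at 72 h. Ctsb, a cysteine protease, was at 1556, 1544.5 and 1507 CPM in air, then 1611, 1359 and 1485 CPM at 24 h and 1466, 1615 and 1646 CPM at 72 h. Both overlapped in the same way, with log2 fold changes of -0.05 and 0.04 at 72 h. Ctsl, a cysteine protease, was at 263, 245 and 256 CPM in air, then 255, 188 and 222 CPM at 24 h and 199.7, 205 and 226 CPM at 72 h. Its 72 h libraries lay below air, by -0.28 ± 0.11 (adjusted p = 0.153). Ctsz lay below air at 72 h in the same way (-0.21 ± 0.10, adjusted p = 0.222). Ctsc, which activates the serine proteases of granulocytes, had the largest positive value of the 40 at 24 h (0.28 ± 0.11, adjusted p = 0.309), with 1119 ± 43.8 CPM (air) and 1355 ± 183 CPM (24 h). Ctsa and Ctsh differed from air by -0.03 and -0.01 at 72 h. Exons of 13 of the 40 genes, Ctsa, Ctsb, Ctsd, Ctsl and Ctsz among them, share bases with exons of other genes in the annotation, which makes their counts less certain. The highest count of Pltp, on the opposite strand of Ctsa, was 14939, beside 57516 for Ctsa. The sources used here do not give whether strand was used.

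**Figure D4:**
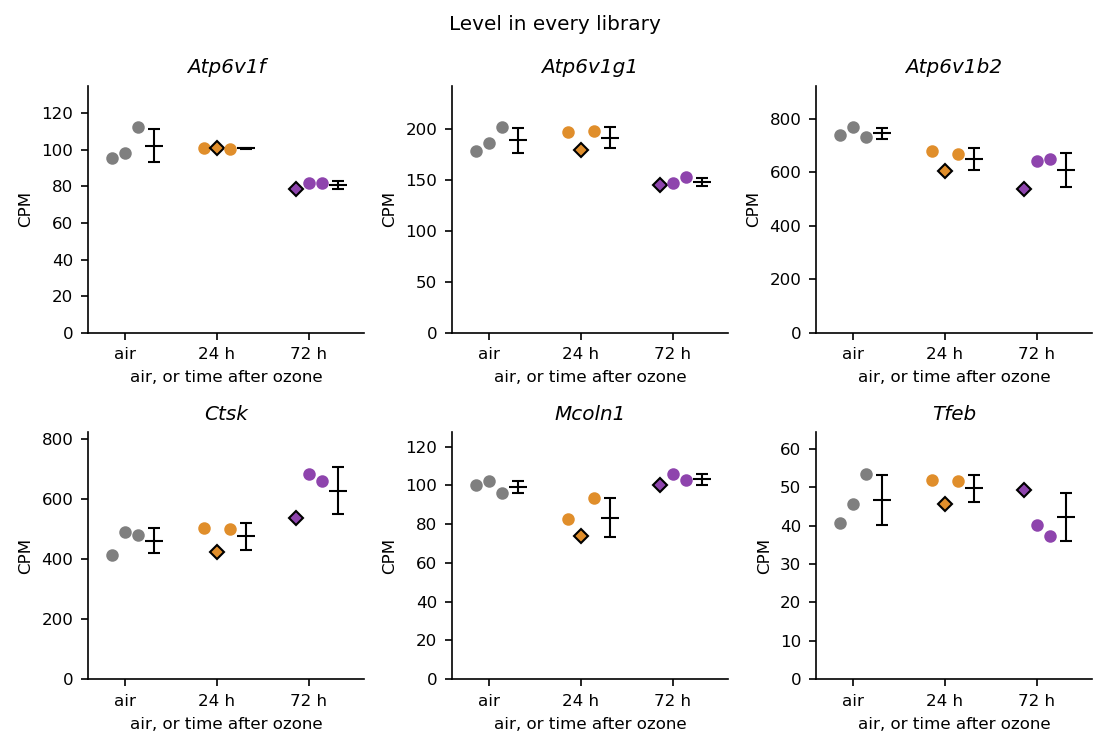
Each panel shows 1 gene, with CPM from 0 on the vertical axis, a point for each library by group, and a bar for the mean ± SD of the 3 libraries; black-edged diamonds are replicate 2 at 24 h and replicate 1 at 72 h. Atp6v1f and Atp6v1g1 are lowest in the 3 libraries at 72 h and Ctsk is highest there.

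In the fit reported, no acid hydrolase or activator gene passed the test in any comparison. Hexa, which encodes the alpha chain of the hexosaminidase that degrades GM2 ganglioside, was the highest hydrolase per kilobase of annotated exon. It was at 526, 541 and 537 CPM in air, then 526, 462 and 524 CPM at 24 h and 464, 513 and 520.3 CPM at 72 h. Lipa, the acid lipase that frees cholesterol and fatty acids from stored esters, was at 968, 957 and 851 CPM in air, then 1081, 679 and 796 CPM at 24 h and 873, 968 and 1045 CPM at 72 h. Its groups overlapped, and the 24 h libraries held both its highest and its lowest value. Glb1, the acid beta-galactosidase, was at 60.6, 64.7 and 57.8 CPM in air, then 64.8, 65.7 and 63.0 CPM at 24 h and 69.2, 71.1 and 68.1 CPM at 72 h. It was the hydrolase nearest to a call, with all 72 h libraries above the other 6 (0.19 ± 0.05 against air, adjusted p = 0.0743). Against air it passed with DESeq2 and, in edgeR, with a filter of 1 CPM in 3 libraries (adjusted p = 0.00731 and 0.0494). It passed in no fit with 1 library left out. Glb1 shares 165 exon bases with Tmppe (highest counts 3862 and 923), and Ppt1 shares 129 with Cap1 on the opposite strand (21460 and 72330). Gla, Gusb, Neu1, Asah1, Tpp1 and Ppt1, which act on glycolipids, glucuronides, sialic acid, ceramide, peptides and fatty-acylated proteins, had log2 fold changes of -0.11 to 0.16 at 72 h.

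Psap, whose product is cut into the saposins that present lipids to hydrolases, was at 5081, 5478 and 5704 CPM in air, then 5427, 4372 and 4868 CPM at 24 h and 5779.6, 5948 and 6167 CPM at 72 h. The 72 h libraries lay above the other 6, by 0.29 ± 0.10 from 24 h (edgeR adjusted p = 0.0862) and 0.14 ± 0.10 from air (adjusted p = 0.418). The difference from 24 h passed with DESeq2 (adjusted p = 0.00576). In edgeR it passed with upper quartile scaling and with a filter of 1 CPM in 3 libraries (adjusted p = 0.0475 and 0.0471), but in no fit with 1 library left out. Grn, which encodes progranulin, was at 1001, 1042 and 1084 CPM in air, then 1055, 968 and 1075 CPM at 24 h and 1039.6, 1048 and 1051 CPM at 72 h. Its 72 h libraries lay inside the range of air, and the 95% interval excluded a 1.5-fold change in either direction.

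Of the membrane proteins, Mcoln1 rose from 24 h to 72 h. Mcoln1 (chromosome 8, 3500457 to 3515232, plus strand) was at 99.9, 102 and 95.9 CPM in air, then 82.9, 73.6 and 93.6 CPM at 24 h and 100.2, 106 and 102.9 CPM at 72 h. The 24 h libraries lay below the other 6, and air and 72 h overlapped. It rose 1.24-fold from 24 h to 72 h (0.31 ± 0.08, edgeR adjusted p = 0.0362), while neither time differed from air by the test (-0.25 ± 0.08 at 24 h, adjusted p = 0.242; 0.05 ± 0.08 at 72 h, adjusted p = 0.711). Without the 2 libraries that carried markers of other cells the rise was 0.27 ± 0.07 (adjusted p = 0.0435). The call held in 2 of 9 fits without 1 library, those without replicate 2 or 3 at 24 h, and in the others its adjusted p was 0.0671 to 0.161. It was also lost with no filter on low counts, in a fit of only the 6 libraries compared and with replicate number as a block (edgeR adjusted p = 0.0736, 0.079 and 0.0794). Lamp1, a major glycoprotein of the lysosomal membrane, was at 1163, 1165 and 1169.8 CPM in air, then 1171, 1001 and 1106 CPM at 24 h and 1026, 1151 and 1173 CPM at 72 h. Lamp2, which also serves chaperone-mediated autophagy, was at 525, 512 and 479 CPM in air, then 506, 406 and 472 CPM at 24 h and 484, 539 and 567 CPM at 72 h. Both overlapped between the groups, with log2 fold changes of -0.06 and 0.07 at 72 h.

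Tfeb itself did not pass the test. It was at 40.8, 45.6 and 53.6 CPM in air, then 51.8, 45.7 and 51.8 CPM at 24 h and 49.3, 40.1 and 37.3 CPM at 72 h. The groups overlapped, and the log2 fold change was 0.09 ± 0.13 at 24 h, -0.14 ± 0.13 at 72 h and -0.24 ± 0.13 from 24 h to 72 h (edgeR adjusted p = 0.729, 0.498 and 0.236). Without the 2 libraries that carried markers of other cells, Tfeb fell from 24 h to 72 h (-0.40 ± 0.11, edgeR adjusted p = 0.0496). That fit was chosen after the data were seen and has fewer mice in both ozone groups. No other setting run called Tfeb in a comparison of 2 groups. Tfeb protein is controlled chiefly by where it sits in the cell, which RNA levels do not measure.

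Tfeb binds a motif built on the E-box CACGTG, with GTCACGTG as its longer core. The RefSeq promoter table for GRCm38.p6, which spans 250 bases before to 50 after a start, held windows for 32 of the 40 genes (38 windows). CACGTG, which reads the same on both strands, was in 11 of the 38 windows (28.9%) and in 7.15% of all 32851 windows. GTCACGTG, searched on both strands and always containing CACGTG, was in 8 of the 38 (21.1%) and in 2.25% of all windows. The sequences below show where the E-boxes, in capitals, lie in genes that did not pass the test in the fit reported. They also show the 150 bases before the RefSeq start of 3 genes that changed. Each is given 5′ to 3′ on the gene's strand. Distances count from the start in the RefSeq table, which can differ from the gene start printed above. For Mcoln1 and Atp6v1f it lies inside the printed gene, so part of each sequence does too, and for Ctsk it lies before the printed start.
Lamp1, chr8:13159088-13159160, plus strand: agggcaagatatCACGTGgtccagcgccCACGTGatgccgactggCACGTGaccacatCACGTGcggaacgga
Gla, chrX:134601182-134601244, minus strand: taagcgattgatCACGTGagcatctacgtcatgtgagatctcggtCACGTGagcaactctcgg
Atp6v0b, chr4:117887330-117887377, minus strand: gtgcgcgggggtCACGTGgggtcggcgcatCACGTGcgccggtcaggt
Glb1, chr9:114401018-114401047, plus strand: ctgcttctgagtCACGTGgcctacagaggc
Ctsl, chr13:64370739-64370768, minus strand: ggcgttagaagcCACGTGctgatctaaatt
Mcoln1, chr8:3500369-3500518, plus strand: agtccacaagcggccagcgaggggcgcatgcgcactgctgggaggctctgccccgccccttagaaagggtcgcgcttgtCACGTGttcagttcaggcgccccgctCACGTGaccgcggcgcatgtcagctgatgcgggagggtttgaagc
Atp6v1f, chr6:29467633-29467782, plus strand: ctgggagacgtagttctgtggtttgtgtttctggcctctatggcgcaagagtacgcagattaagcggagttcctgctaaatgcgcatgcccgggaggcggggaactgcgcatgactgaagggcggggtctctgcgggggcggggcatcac
Ctsk, chr3:95499060-95499209, plus strand: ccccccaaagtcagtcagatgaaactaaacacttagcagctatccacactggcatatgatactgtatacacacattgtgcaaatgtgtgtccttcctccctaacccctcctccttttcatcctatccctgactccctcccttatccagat
Lamp1 held 4 E-boxes, at 61, 45, 28 and 15 bases before its RefSeq start, and Mcoln1 held 2, at 71 and 45 bases before it. Of the genes that changed, Mcoln1 therefore had the motif in its window, no match was found for Atp6v1f and Ctsk, and Atp6v1g1 had no window in the table. In the fit reported, Lamp1, Gla, Atp6v0b and Glb1, each with at least 1 match, did not pass the test in any comparison. Glb1 passed against air with DESeq2 and with the 1 CPM filter, as given above. Whether the motif bears on any change was not tested.

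The 2 libraries with markers of other cells were also low in the lysosomal genes. Replicate 2 at 24 h was the lowest of its group in 37 of the 40, against 39.1% of all genes tested, and replicate 1 at 72 h in 34 of the 40, against 39.8%. The median over the 40 genes of log2 CPM minus the air mean was 0.03, -0.19 and -0.03 in replicates 1 to 3 at 24 h and -0.15, -0.03 and 0.01 at 72 h. Without these 2, the median log2 fold change of the 40 was 0.01 at 24 h (21 positive, 19 negative) in place of -0.05 (9 positive, 31 negative), and 0.00 at 72 h. In that fit 0 genes were called at 24 h, against 0.0444% of all genes, 3 at 72 h against air (Atp6v1f, Atp6v1g1 and Ctsk), against 7.12% of all genes, and 4 from 24 h to 72 h (Atp6v1g1, Ctsk, Mcoln1 and Tfeb), against 15.1%. Atp6v1f was at -0.30 ± 0.07 against air (adjusted p = 0.0475) and -0.28 ± 0.08 against 24 h (adjusted p = 0.0513), and Atp6v1g1 at -0.31 ± 0.06 (adjusted p = 0.0292) and -0.38 ± 0.07 (adjusted p = 0.0166).

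Values at 72 h also moved with exon length. Across the 4372 protein-coding genes expressed at or above the lowest of the 40, the log2 fold change at 72 h against air had a Spearman correlation of 0.562 with exon length, and the 193 of them up to 1.5 kb long had a median of -0.27. The 4 lysosomal genes up to 1.5 kb, Atp6v1f (1063 bases), Atp6v1g1 (1135 bases), Ctss and Ctsz, had a median of -0.28, with Ctss at -0.05 and Ctsz at -0.21. Over the 40 genes themselves the Spearman correlation was 0.22. Ctsk, at 1512 bases, lay at 0.44, opposite to genes of its length, whose median for 1.5 to 3 kb was -0.20. By library, against the air mean, replicates 1 to 3 at 72 h gave correlations of 0.466, 0.567 and 0.541 with length. Untreated libraries varied as well: air replicates 1 to 3 gave 0.439, 0.168 and -0.452. In size, air replicates 1 and 3 thus came close to the 72 h group. Medians of the 193 genes up to 1.5 kb lay further apart. They were -0.32, -0.27 and -0.22 for the 72 h replicates, beside -0.04, -0.02 and 0.06 for the air replicates. With the length trend as an offset in the fit, chosen after the data were seen, Atp6v1f was at -0.25 ± 0.06 and Atp6v1g1 at -0.25 ± 0.07 against air, and neither passed (edgeR adjusted p = 0.0762 and 0.104); 0 of the 40 passed at 72 h against air, where 1.27% of all genes did. From 24 h to 72 h the correlation over the 4372 genes was 0.542. The 193 genes up to 1.5 kb had a median of -0.30 there, beside -0.32 for Atp6v1f and -0.37 for Atp6v1g1. Medians in the length classes of Ctsk (1.5 to 3 kb) and Mcoln1 (over 6 kb) were -0.20 and 0.09. All 4 calls from 24 h to 72 h held with the offset: Atp6v1f at -0.22 ± 0.06, Atp6v1g1 at -0.27 ± 0.07, Ctsk at 0.52 ± 0.13 and Mcoln1 at 0.26 ± 0.07 (edgeR adjusted p = 0.0416, 0.0391, 0.0326 and 0.0483). Atp6v1h (-0.29, adjusted p = 0.0215) and Psap (0.37, adjusted p = 0.0491) passed as well, against 13.4% of all genes.

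**Figure D5:**
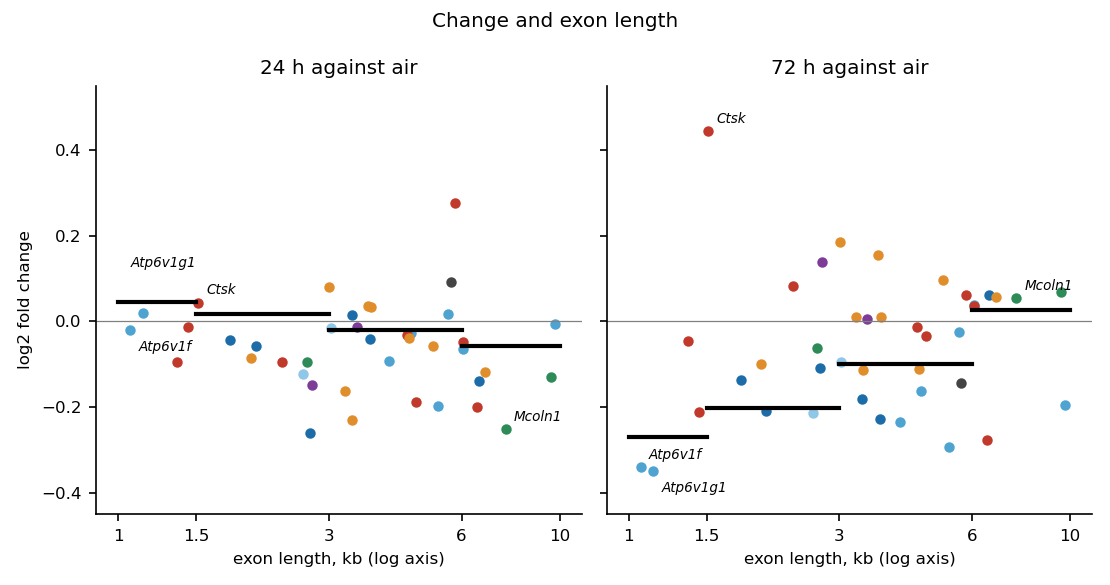
Points are the 40 genes, with exon length in kb on a log axis and log2 fold change against air on the vertical axis at 24 h (left) and 72 h (right); colours mark roles as in the plot of changes. Black bars are medians of protein-coding genes at the same levels in 4 length classes, the outer bars standing for all genes up to 1.5 kb and over 6 kb. At 72 h the bars climb from -0.27 to 0.03, Atp6v1f and Atp6v1g1 lie near the lowest bar and Ctsk lies far above its own.

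A further 113 genes of the lysosomal pathway, listed by function, were read beside the 40, and 105 of them were tested. At 24 h, 0 of the 105 passed (edgeR). At an unadjusted p under 0.05, 12 of them passed, against 14.7% of all genes, and DESeq2 called 3, against 5.03%, and voom 0, against 0.00636%. At 72 h against air, 4 fell and 0 rose, against 3.77% of all genes lower and 1.71% higher. They were Tmem192, a lysosomal membrane protein (-0.33), Lamtor2, part of the Ragulator scaffold that brings mTORC1 to the lysosome (-0.32), and the autophagy genes Map1lc3a (-0.33) and Gabarapl2 (-0.22), with edgeR adjusted p of 0.0273 to 0.0446. Their exon lengths were 1750, 1218, 1181 and 2325 bases, and with the length offset 0 of the 105 passed. The count was 11 without replicate 2 at 24 h and 0 without any other single library. Shares of all genes called in those fits are not given here.

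From 24 h to 72 h, 8 of the 105 rose and 7 fell, against 5.39% and 12.8% of all genes. Of 21 tested genes that control Tfeb and mTORC1, 7 were called, against 18.2% of all genes in either direction. With the length offset, which called 13.4% of all genes, 2 of the 7 were also called, Zkscan3 and Lamtor2. Rptor and Rheb, of the same list but not among the 7, were called with the offset as well. Zkscan3, a zinc finger protein described as a repressor of lysosomal and autophagy genes, was at 64.2, 65.5 and 61.1 CPM in air, then 52.2, 47.6 and 60.2 CPM at 24 h and 74.1, 80.1 and 79.96 CPM at 72 h. The 24 h libraries lay below air and the 72 h libraries above it, and Zkscan3 rose by 0.55 ± 0.08 on the log2 scale from 24 h to 72 h (edgeR adjusted p = 0.00728). Tsc1, a restraint on mTORC1, and Fnip2, a partner of folliculin, also rose (0.26 and 0.46). Of the Ragulator subunits, Lamtor5 (-0.28), Lamtor2 (-0.33), Lamtor4 (-0.32) and Lamtor1 (-0.26) fell, with adjusted p of 0.0158 to 0.0261, while Lamtor3 was at -0.05 (edgeR adjusted p = 0.666). Exon lengths were 884, 1218, 1302 and 3215 bases for the 4 that fell and 4151 bases for Lamtor3. With the length offset, Lamtor2 was the only one of the 5 called (-0.22, adjusted p = 0.0465), and without the 2 libraries that carried markers of other cells it was Lamtor1 (-0.25, adjusted p = 0.0376).

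Among other pump genes, Atp6v1g2, an alternative G subunit at 4.76 CPM on average, rose (0.60 ± 0.16, edgeR adjusted p = 0.0353), and Vma21, a chaperone of pump assembly, fell (-0.25 ± 0.05, adjusted p = 0.0182). Among other hydrolases, Galc, which degrades galactosylceramide, and Man2b1, a lysosomal alpha-mannosidase, rose (0.43 and 0.22). Their exon lengths were 14879 and 8026 bases. Of the other membrane proteins, the sialic acid exporter Slc17a5 rose (0.41) and Tmem192 fell (-0.20). Of the autophagy genes, Wipi1 rose (0.34) and Gabarapl2 fell (-0.22). With the length offset, Atp6v1g2, Vma21, Slc17a5 and Wipi1 were still called, and Galc, Man2b1, Tmem192 and Gabarapl2 were not. In the fit reported, none of the 7 other proteases, of the 9 genes for mannose phosphate sorting or of the 2 cystatins tested passed in any comparison. Their most abundant genes, Lgmn (asparagine endopeptidase), Sort1 (a sorting receptor) and Cst3 (cystatin C, a cathepsin inhibitor), differed from air at 72 h by 0.22, 0.06 and -0.01. DESeq2 called Ctsf at 24 h and Scpep1 at 72 h against air. Igf2r was called at 72 h against air with only the 6 libraries compared, without replicate 2 at 24 h, and without the 2 libraries that carried other markers. The last 2 of these fits also called Igf2r and Nagpa from 24 h to 72 h, and the last called Ctse. Without the 2 libraries that carried markers of other cells, 9 of the 105 passed at 72 h, 6 of them higher against 4.46% of all genes, and 13 from 24 h to 72 h, 10 of them higher against 6.59%. The count from 24 h to 72 h was 0 without replicate 2 at 72 h, 2 without replicate 1 at 24 h, and 5 to 11 without any other single library. For these fits, too, shares of all genes called are not given.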

How the data were processed

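Members and lists were chosen with earlier results of these data known. The authors deposited estimated counts per gene from 9 libraries, not scaled to library size. Per the labels' protocols, red cell lysis came first and a stranded kit for total RNA was used; per the submitters' processing notes, Trimmomatic 0.39, FastQC, Salmon and DESeq2 were used on GRCm38.p6, and the sources used here do not give the annotation release. GENCODE M21 matched 54107 of 54281 identifiers.

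Counts were rounded and filtered with filterByExpr, which left 15713 genes, and scaled by TMM. All 9 libraries entered 1 robust quasi-likelihood fit in edgeR 4.0.16 (R 4.3.3). Adjustment (Benjamini-Hochberg) was over all 15713, and a call is an adjusted p under 0.05. SE comes from the fold change and F. The procedure was tested on simulated data. Values in every library are given for called genes, for the gene with the smallest joint p and the highest level per kb in each role, and for a fixed roster; Atp6v1b2 and Ctsc were added after their values were seen. Pathway genes named are up to 4 called per list, or the most abundant. Lamtor1, Tsc1, Fnip2, the alternative pump subunits and genes called only in alternative fits were added after their values were seen.

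Alternatives were other scalings and filters, DESeq2 1.42.0, limma 3.58.1 with voom, a replicate block, the 6 libraries compared, and each library left out. Fits without 2 libraries and with a length offset were added after the data were seen. No libraries were copies of each other (chi-square per degree of freedom 7.41 to 142.49). Promoter sequences are from RefSeq; 8 genes had no window in the table.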

Additional observations from a re-analysis of the deposited data

Results flagged for a closer look

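Of the 40 lysosomal genes, 4 differed between the 2 times after ozone by a test of the difference itself (edgeR, 72 h against 24 h, adjusted p under 0.05). Of all genes tested, 18.2% differed by the same test. The change at 72 h minus the change at 24 h, on the log2 scale, was -0.32 for Atp6v1f and -0.37 for Atp6v1g1, which lay at 24 h within the range of air. It was 0.40 for Ctsk, whose 72 h libraries lay above the other 6. It was 0.31 for Mcoln1, whose 24 h libraries lay below the other 6.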

How the results depend on the processing

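The count of lysosomal genes called was 0 at 24 h in every setting run. At 72 h against air (2 as reported) it was 0 with upper quartile scaling, with no filter and with the length offset, 7 with DESeq2 (2 higher, 5 lower), and 0 to 3 with 1 library left out. From 24 h to 72 h (4 as reported) it was 2 with no filter, 2 with only the 6 libraries compared, and 0 to 3 with 1 library left out. For any difference among the groups (2 as reported) it was 5 with upper quartile scaling, 4 with the 1 CPM filter, 8 with DESeq2, and 0 to 4 with 1 library left out. Of the 105 pathway genes, DESeq2 called 3 at 24 h. At 72 h against air (4 as reported) the count was 1 with DESeq2 size factors, 0 with upper quartile scaling, no filter or the length offset, 2 with the 1 CPM filter, 12 with DESeq2, 8 with only the 6 libraries, 9 without the 2 libraries that carried other markers, and 0 to 11 with 1 left out. From 24 h to 72 h (15 as reported) it was 7 with no filter, 7 with only the 6 libraries, 8 with the length offset, and 0 to 11 with 1 left out. The cause of these shifts was not tested, and leaving out a library also leaves fewer samples. Each count depends on how many genes its fit called in all, and that share is not given for most settings. At 72 h against air it was 12.6% with DESeq2 and 1.27% with the length offset. These counts are therefore not read as results about the lysosomal genes. The direction of the 4 called genes was the same in all settings run.

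Same-numbered libraries did not deviate together (correlations -0.751 to 0.628), and the numbers were not taken as pairs. The highest correlation, 0.808, was between replicate 2 at 24 h and replicate 1 at 72 h, the 2 libraries with markers of other cells. With these 2 weighing on the correlations, the check could not decide whether the numbers mark pairs. With a replicate block, lysosomal genes called were 0 at 72 h against air, 2 from 24 h to 72 h and 0 in the joint test, and pathway genes 0 and 5; 2 of 9 libraries correlated best with their own number. With 3 mice a group, an exact two-sided permutation test of 1 gene cannot go below p = 0.1.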
